A study of Mus musculus with 2 samples.

Results

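The genes described here are the creatine kinases and adenylate kinases Ckm, Ckmt2, Ckb, Ckmt1, Ak1, Ak3 and Ak4, which were taken by gene name from the deposited transcript counts of mouse heart. All 7 genes carried at least 1 count, among 16269 reference genes with a count. The tissue was heart of male F1 hybrid mice of strain B6CASTF1/J at 14 days of age, with no treatment named in the labels, and RNA was read as full cDNA molecules in 2 long-read libraries. The libraries form 1 group and are called replicates 1 and 2. Their tissue samples have different numbers and 1 shared donor identifier, and each label speaks of 3 males without stating whether hearts were pooled. Since both library descriptions also point to the same tissue number and cDNAs, the spread between the libraries may be technical in part.

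Creatine kinases move a phosphate group between ATP and creatine, so that phosphocreatine can refill ATP at the contractile filaments and ion pumps. Muscle and brain subunits (Ckm and Ckb) pair as cytosolic dimers, and the mitochondrial forms (Ckmt2 in striated muscle, Ckmt1 in many other tissues) sit between the mitochondrial membranes and load creatine with phosphate from newly made ATP. Adenylate kinases turn a pair of ADP molecules into ATP and AMP, and the AMP is read by AMP-activated protein kinase. Ak1 is the cytosolic form of muscle, while Ak3, which uses GTP, and Ak4 are forms of the mitochondrial matrix.

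The stretch of coding sequence around the catalytic site shows how close the family members are at a conserved site. How well reads separate the members was not tested. In the creatine kinases, capitals mark the codon of the active-site cysteine, codon 283 of Ckm and Ckb and codon 317 of Ckmt2 and Ckmt1, counted from the start codon. The 36 bases were read from the GENCODE M21 transcripts and are written 5′ to 3′.
Ckm: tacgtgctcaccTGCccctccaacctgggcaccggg
Ckb: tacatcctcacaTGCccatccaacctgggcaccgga
Ckmt2: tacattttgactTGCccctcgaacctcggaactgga
Ckmt1: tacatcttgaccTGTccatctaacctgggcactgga
Within these 36 bases Ckb differed from Ckm at 5 positions, Ckmt1 at 9 and Ckmt2 at 10. Over the whole coding sequence, Ckm and Ckb were identical at 76.5% of aligned bases, Ckmt2 and Ckmt1 at 72.2%, and Ckm and Ckmt2 at 68.7%. In the adenylate kinases, capitals mark the lysine codon of the phosphate-binding loop, codon 21 of Ak1, codon 20 of Ak3 and codon 18 of Ak4.
Ak1: ggcggacctggctcaggaAAGggcacc
Ak3: ggggccccgggctccggcAAGggcacc
Ak4: gggccgcccggctctggcAAGggcacc
Ak3 differed from Ak1 at 6 of these 27 bases and Ak4 at 7. Coding identity was 64.0% between Ak3 and Ak4, 64.8% between Ak1 and Ak4 and 60.3% between Ak1 and Ak3.

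The depth on reference genes was 1059016 counts for replicate 1 and 1064679 for replicate 2. Levels are counts per 1000000 of these (CPM), which makes a single count 0.944 CPM and 0.939 CPM. A floor of 3 counts corresponds to 2.83 and 2.82 CPM. The 5 cardiomyocyte markers summed to 30689 and 32688 CPM, most of it Myh6, and moved both ways, with 2 higher in replicate 1, 2 higher in replicate 2 and a median log2 ratio of −0.22. In contrast, the 6 skeletal muscle markers held 0 and 3 counts, all 3 on Mylpf, and the 5 neural and Schwann cell markers held 12 in each library. The libraries differed in other tissue markers. The 4 atrial markers held 5154 counts in replicate 1 and 1278 in replicate 2, brown fat markers 152 and 72 with Elovl3 at 0, thymus markers 0 and 42, red blood cell markers 15026 and 11147, and macrophage markers 166 and 259. Their part in the levels below was not tested. In such bulk tissue, fewer cells of a type and less RNA per cell cannot be told apart.

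The muscle subunit dominated the creatine kinases. Ckm, on chr7:19404776-19422841, had 12341 counts in replicate 1 and 12685 in replicate 2, or 11784 ± 185 CPM (SD, n = 2), and ranked 4 among all detected genes. Ckmt2, the mitochondrial form of striated muscle on chr13:91853387-91876885, had 3507 and 3701 counts, or 3394 ± 116 CPM, at rank 23. Ckb, the brain subunit on chr12:111669361-111672338, had 262 and 320 counts, or 274 ± 37.6 CPM, at rank 561. Ckm and Ckmt2 were above Ckb in both libraries, with no overlap. Ckmt1, the other mitochondrial form, on chr2:121357714-121363737, had 1 and 2 counts, below the floor in both libraries.

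By read count, there were 3.52 Ckm counts for each Ckmt2 count in replicate 1 (95% exact interval 3.39 to 3.65) and 3.43 in replicate 2 (3.30 to 3.56). For each Ckb count there were 47.1 Ckm counts in replicate 1 (41.7 to 53.4) and 39.6 in replicate 2 (35.5 to 44.4), and 13.4 and 11.6 Ckmt2 counts. The intervals of the libraries overlapped for each of these ratios. As shares of all creatine kinase counts, Ckm made up 76.6% and 75.9%, Ckmt2 21.8% and 22.2%, and Ckb 1.63% (1.44 to 1.83) and 1.92% (1.71 to 2.13). Ckmt1 made up 0.0062% in replicate 1 and 0.012% in replicate 2, with upper bounds of 0.035% and 0.043%. The 4 creatine kinases together took 1.52% and 1.57% of all reference gene counts.

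Among the adenylate kinases the cytosolic Ak1 stood first. Ak1, on chr2:32621758-32635058, had 2716 and 2771 counts, or 2584 ± 26.9 CPM, at rank 40. Ak3, on chr19:29020833-29047961, had 122 and 119 counts, or 113 ± 2.43 CPM, at rank 1496. Ak4, on chr4:101419277-101466995, had 2 and 3 counts, at or below the floor. Ak1 therefore exceeded Ak3 in both libraries, with 22.3 Ak1 counts for each Ak3 count in replicate 1 (18.6 to 26.9) and 23.3 in replicate 2 (19.4 to 28.2). Ak1 made up 95.6% and 95.8% of the counts of the 3 adenylate kinases, Ak3 4.30% and 4.11%, and Ak4 0.07% and 0.10%.

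**Figure D1:**
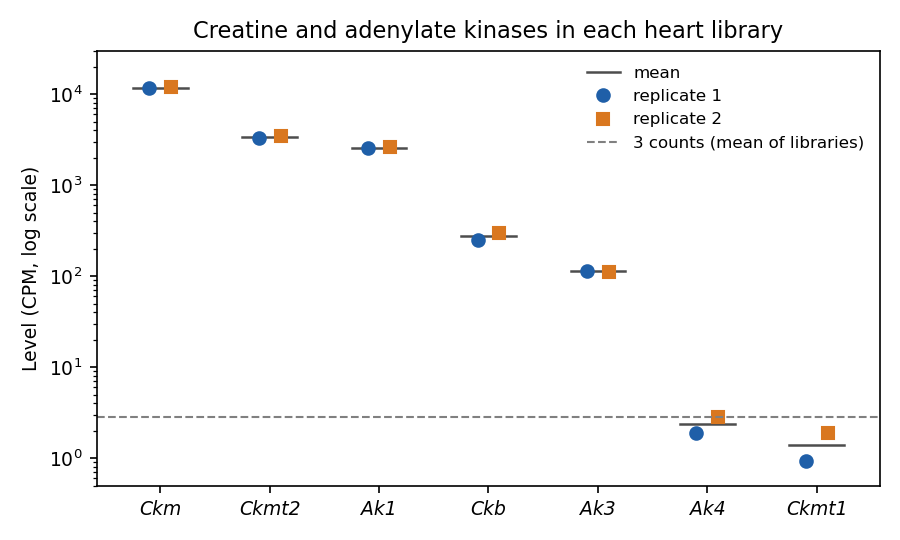
Level of each kinase gene in CPM on a log axis, with circles for replicate 1, squares for replicate 2 and a short line for their mean. Ckm lies near 11784 CPM and Ak1 near 2584 CPM, while Ak4 and Ckmt1 lie at or below the dashed line of 3 counts.

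In CPM the order of the 7 genes was Ckm, Ckmt2, Ak1, Ckb, Ak3, Ak4 and Ckmt1. The neighbours Ckmt2 and Ak1 were closest among the abundant genes, with 1.29 Ckmt2 counts for each Ak1 count in replicate 1 (1.23 to 1.36) and 1.34 in replicate 2 (1.27 to 1.40). Ckb exceeded Ak3 by a ratio of 2.15 (1.73 to 2.68) and 2.69 (2.17 to 3.35). Ak4 and Ckmt1 could not be ordered at this depth. Divided by the length of the main annotated transcript, levels were 4298 ± 67.3 CPM per kilobase for Ckm, 2284 ± 78.3 for Ckmt2, 1252 ± 13.0 for Ak1, 186 ± 25.5 for Ckb and 40.4 ± 0.86 for Ak3, the same order as in CPM. With the shorter Ckm transcript end described below, the value for Ckm was 7935 ± 124 CPM per kilobase.

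Among other adenylate kinase genes, Ak6, a nuclear form, had 127 and 135 counts (log2 ratio 0.08, exact binomial test, adjusted p = 0.973), and Ak5 had 0 and 1. Ak7, Ak8 and Ak9 had none, which allows up to 3 counts of the total in each library. Ak3 and Ak6 did not differ beyond counting error, with 0.961 Ak3 counts for each Ak6 count in replicate 1 (0.743 to 1.24) and 0.881 in replicate 2 (0.683 to 1.14).

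The genes that make and import creatine were read rarely next to the kinases that use it. Slc6a8, the creatine transporter, had 24 and 28 counts, Gamt, which methylates guanidinoacetate to creatine, 19 and 21, and Gatm, which makes guanidinoacetate, 8 and 3. Together they held 51 and 52 counts, and 0 of 3 passed the test, where 3.26% of all tested genes did. Of the other nucleotide kinases, 10 of 10 had a count and 1 of 9 tested passed, where 1.65% of all tested genes were higher in replicate 1. This was Nme2, a nucleoside diphosphate kinase, with 664 counts in replicate 1 and 514 in replicate 2 (log2 ratio of replicate 2 over 1 −0.38, exact binomial test, adjusted p = 0.000588). Its mean was 555 CPM, and of the genes with a mean of 500 CPM or more 37.7% passed in either direction. Guk1, guanylate kinase, had 130 and 125 counts, and Cmpk1, which phosphorylates UMP and CMP, 110 and 99.

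Genes that handle AMP were read at levels near that of Ckb or lower. In the AMP turnover list 6 of 7 genes had a count and 0 of 6 passed, against 3.26% of all tested genes. Adk, adenosine kinase, had 309 and 308 counts, Adssl1, the muscle form of adenylosuccinate synthase, 315 and 294, and Adsl, the next enzyme of that route, 160 and 200. Ampd1, the AMP deaminase of skeletal muscle, had 0 counts. All 7 subunit genes of AMP-activated kinase had a count, and 0 of 6 tested passed, against the same 3.26%. Prkag1, a subunit that binds AMP, had 145 and 155 counts, the beta subunit Prkab1 121 and 123, and Prkag2 55 and 34. The beta and gamma subunits Prkab1 and Prkag1 were close to Ak3 in CPM, at 115 ± 0.90 and 141 ± 6.13 against 113 ± 2.43.

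The libraries were compared gene by gene with a two-sided exact binomial test of the counts against the library totals, adjusted by Benjamini-Hochberg over 10162 genes with a summed count of at least 10. Such a test covers counting error only and compares these libraries, not conditions. Of the members, 5 had enough counts and 0 of 5 passed at 0.05, against 3.26% of all tested genes (1.65% higher in replicate 1 and 1.6% higher in replicate 2). Among the 268 genes with a mean of 500 CPM or more, such as Ckm, Ckmt2 and Ak1, 37.7% passed. From 50 to below 500 CPM, where Ckb and Ak3 lie, 5.53% of 2966 genes did. At an unadjusted p below 0.05 there were 2 members. The exact test of edgeR with a common dispersion called 0 of 5 members and 22 of 10162 genes. In it 0 members were below an unadjusted 0.05. Its dispersion was estimated from these same 2 libraries taken as replicates. It therefore contains the difference under test, and the result gives no separate support. The log2 ratio of replicate 2 over replicate 1 was 0.03 for Ckm (adjusted p = 0.503), 0.07 for Ckmt2 (0.362), 0.28 for Ckb (0.259), 0.02 for Ak1 (0.951) and −0.04 for Ak3 (1 after adjustment), all by the exact binomial test. Their median of 0.03 stands beside a median of 0.08 over all tested genes. With edgeR's TMM scaling, which moved the median of all genes to −0.0031, the ratios of Ckm, Ckmt2 and Ak1 turned to −0.05, −0.01 and −0.06. Ckb had the largest difference of the 5. Beside it the 4 smooth muscle markers held 370 and 441 counts, with 0 of 4 past the threshold and Cnn1 at 19 and 13. The 3 macrophage markers held 166 and 259, with Cd68 at 8 and 0. Endothelial markers, 3 in number, held 171 and 187, with Cdh5 at 56 and 48. The 5 neural and Schwann cell markers held 12 in each library, and the 3 fibroblast markers 1382 and 1369. Their part in the Ckb difference was not tested.

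**Figure D2:**
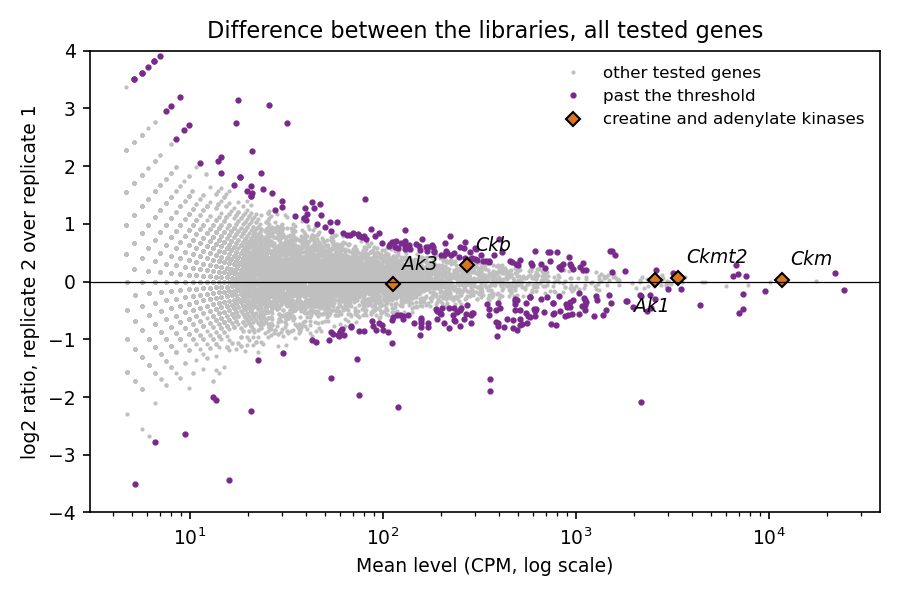
Log2 ratio of replicate 2 over replicate 1 against mean CPM on a log axis for all 10162 tested genes, with diamonds for the kinases and purple points for genes past the threshold. Ckm, Ckmt2, Ak1 and Ak3 lie within 0.07 of 0 and Ckb lies at 0.28, and 8 genes beyond ±4 are not drawn.

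The call for Ckm depended on the length it was given. After a trend of the log2 ratio with transcript length was removed, with Ckm at its annotated 2742 bases, its ratio was −0.08 with an adjusted p of 0.000804 in the exact binomial test. With Ckm at 2742 bases, 1 of 5 members and 210 of 10162 tested genes passed. Ckm was then set at 1485 bases, the length to its other annotated end, a setting chosen after the data were seen. There 0 of 5 members and 209 of 10162 tested genes passed.

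In Ckm, Ckb, Ak1 and Ak3, 1 annotated transcript carried nearly all annotated counts, while Ckmt2 has only 1 annotated transcript. Ckm-203, with 8 exons and 381 codons, held 11933 counts (96.7% of the gene) in replicate 1 and 12313 (97.1%) in replicate 2, and Ckm-201, which lacks the second exon of Ckm-203, 0 and 2. Ckmt2-201, with 10 exons, held 3334 (95.1%) and 3532 (95.4%). Ckb-201 held 244 (93.1%) and 299 (93.4%), and the retained-intron transcript Ckb-204 held 3 and 1. Ak1-202 held 2455 (90.4%) and 2487 (89.8%), Ak1-201 2 and 0, and Ak1-203 1 and 0. Ak3-201, 1 of 2 annotated transcripts of its gene, held 109 (89.3%) and 111 (93.3%). Ckmt1-202 held each of the 1 and 2 counts of its gene, and Ak4-201 held 1 count in replicate 1.

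The share of the dominant transcript among annotated counts could be tested between libraries in 3 members, with Fisher's exact test, two-sided and run over 2633 genes, of which 0.038% passed. It was 98.8% and 99.7% for Ckb-201, 99.9% and 100% for Ak1-202 and 100% and 99.98% for Ckm-203, and 0 of 3 passed. The unadjusted p was 0.332, 0.123 and 0.5, so that 0 of 3 were below 0.05 without adjustment too.

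The remaining counts lay on models that the authors' annotation step had classed as not in the reference. Across 1682 genes with at least 100 counts in each library, the median gene had 90.3% and 90.4% of its counts on annotated transcripts. Ckm (96.7% and 97.1%) and Ckmt2 (95.1% and 95.4%) lay above that median and Ckm above the upper quartile of 95.9%. Ckb had 94.3% and 93.8%, Ak1 90.5% and 89.8%, and Ak3 89.3% and 93.3%. The lower bound of the exact interval lay above the median gene for Ckm, Ckmt2 and Ckb in both libraries, but not for Ak1 or Ak3.

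**Figure D3:**
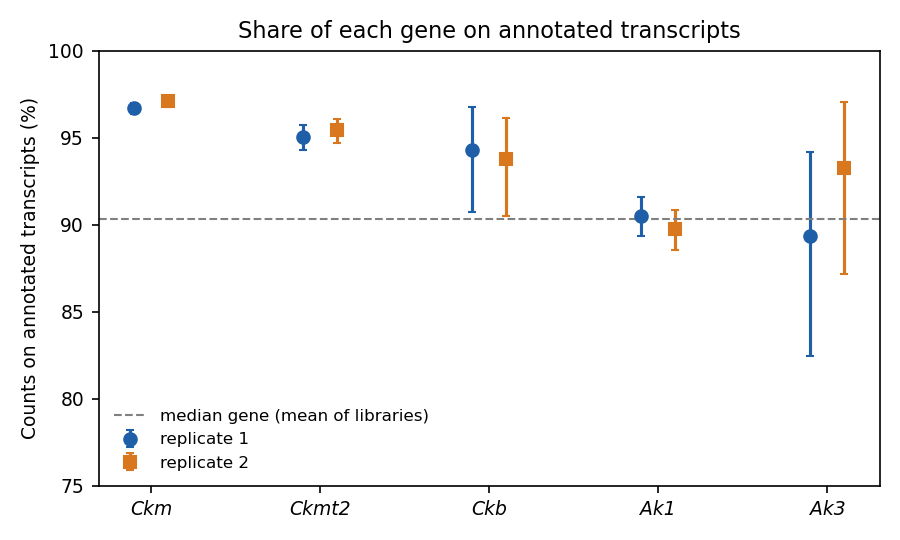
Percent of each gene's counts on annotated transcripts in replicate 1 (circles) and replicate 2 (squares), with 95% Clopper-Pearson intervals and a dashed line at the median gene; the axis does not start at 0. Ckm lies at 96.7% and 97.1%, and Ak1 at 90.5% and 89.8%, close to the line.

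Most of the new Ckm counts came from models that keep the 3′ side of the gene and lack introns at the 5′ side. Models of this kind held 347 and 314 Ckm counts (2.81% and 2.48% of the gene). The model with the last 2 exons, 567 bases long, held 196 counts in replicate 1 and 153 in replicate 2. Lengths in between were rarer. The model that lacks only the first intron held 74 and 57 counts, the one that starts after intron 2 held 31 and 41, and the one that starts after intron 4 held 23 and 39. A single-exon model of 377 bases, which ends at the earlier annotated Ckm end described below, held 25 and 9. The profile of Ckmt2 was weighted to the other side, since the model that lacks only the first intron held 37 and 46 counts and the one with the last 2 exons 2 and 3. In Ak1 such models held 37 and 34 counts after intron 1, 4 and 11 after intron 2, 21 and 23 after intron 3, 8 and 22 after intron 4 and 15 and 23 after intron 5.

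**Figure D4:**
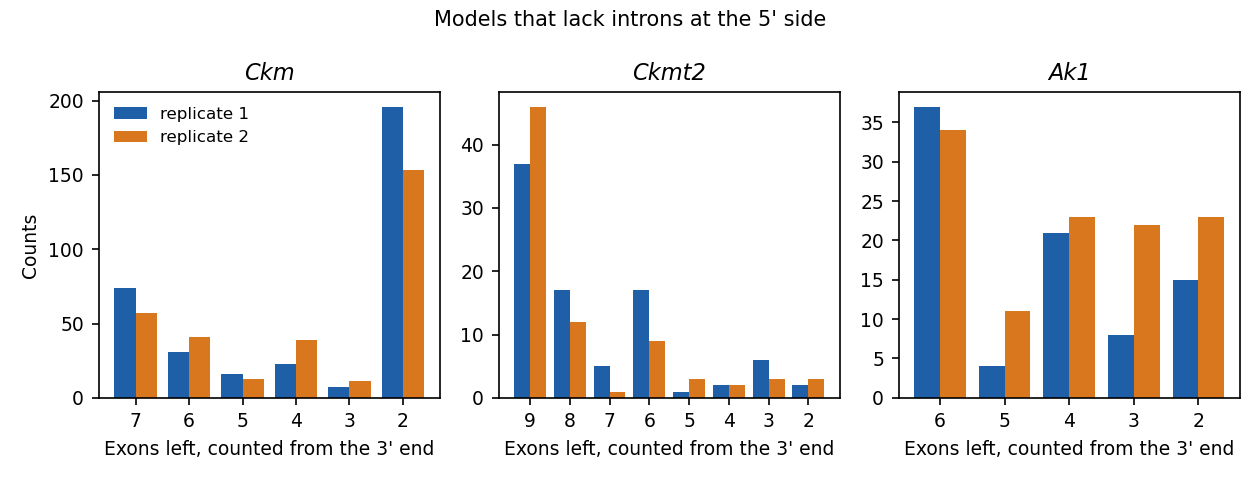
Counts of models that keep the 3′ exons and lack introns at the 5′ side, by the number of exons left, for Ckm, Ckmt2 and Ak1 in replicate 1 (blue) and replicate 2 (orange); each panel has its own count axis, which starts at 0. In Ckm the tallest bars, 196 and 153, stand at 2 exons, and in Ckmt2 the tallest, 37 and 46, at 9 exons.

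The new Ckm models also differed from Ckm-203 at the 3′ end. Ckm-203 is annotated to chr7 position 19422841, whereas Ckm-201 ends 1257 bases earlier, at 19421584. In replicate 1, 28 of 29 new models with 407 of 408 counts ended at the earlier position, and in replicate 2, 34 of 36 models with 368 of 370 counts did so. At the later end there were 0 and 1 counts, and the 1 count lay on a single-exon model of 1258 bases. Counts on an annotated transcript carry that transcript's deposited coordinates, so the ends of the 11933 and 12313 reads counted as Ckm-203 are not given. From the Ckm-203 start to the earlier end the transcript would be 1485 bases long, close to Ckmt2-201 (1486) and Ckb-201 (1472). The new Ckm models with all 7 introns were also listed from 19411063, where Ckm-201 starts. Whether the ends of new models were read or taken from the annotation is not given in the sources used here. Ckmt2 has only 1 annotated transcript, so its new models had no other annotated end to share. They held 160 of 173 and 163 of 169 counts at the end of Ckmt2-201. All 15 and 20 new Ckb counts lay at the end of Ckb-201.

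Some new Ak1 models ended further inside the last exon, mostly in replicate 1. New Ak1 models at 32634271, 783 bases before the annotated end, held 48 counts in replicate 1, against 2 in replicate 2, and those at 32633862 held 17 and 2. A model carries 1 end for all its counts, set library by library, and the same introns were listed with the annotated end in replicate 2 for the model that starts after intron 1. Single-exon models of the last Ak1 exon held 46 counts in replicate 1, with 1405 bases, and 49 in replicate 2, with 1414 bases. Although they nearly coincide, the authors' classes were Genomic in replicate 1 and ISM (a subset of annotated splice junctions) in replicate 2.

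Splice variants of the coding exons were rare. The most frequent Ckmt2 variant used an acceptor 15 bases inside the last exon, at chr13:91853634-91853648, which removes 5 codons and keeps the reading frame. It held 21 counts in replicate 1 (0.60% of the gene, 0.37 to 0.91) and 24 in replicate 2 (0.65%, 0.42 to 0.96). The intervals of the libraries overlapped. In the sequence of Ckmt2-201 around that junction, capitals mark the bases that the variant lacks, which end in AG, the dinucleotide at the end of most introns.
Ckmt2 acceptor of intron 9: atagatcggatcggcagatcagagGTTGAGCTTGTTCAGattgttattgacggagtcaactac
Other Ckmt2 variants skipped exon 6 (86 coding bases, a shift of frame; 4 and 5 counts), exon 4 (96 bases, in frame; 3 and 5 counts) or exon 2 (152 coding bases lost; 3 and 4 counts). A model that kept intron 3 held 6 and 5 counts. A model with another, more upstream first exon held 4 in each library.

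In Ak1 several variants fell at intron 3, which interrupts the codons of the phosphate-binding loop, or at intron 2 ahead of them. At the donor of intron 3 a variant that lacks the last 4 bases of the exon, at chr2:32629881-32629884, held 17 and 18 counts (0.63% and 0.65% of the gene). At the acceptor of the same intron a variant that lacks 15 bases, at chr2:32630235-32630249, held 4 and 6 counts (0.15% and 0.22%). These 15 bases are coding bases 44 to 58, and the loop shown above spans coding bases 43 to 69. The variant therefore lacks the length of 5 codons of the loop in frame, ahead of the lysine codon, which it keeps. Another variant lacks 2 bases, coding bases 8 and 9, at the acceptor of intron 2, and held 11 and 7 counts. Capitals again mark what each variant lacks, and the lost 4 bases begin with GT, the dinucleotide at the start of most introns.
Ak1 donor of intron 3: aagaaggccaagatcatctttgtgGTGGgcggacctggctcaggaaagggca
Ak1 acceptor of intron 3: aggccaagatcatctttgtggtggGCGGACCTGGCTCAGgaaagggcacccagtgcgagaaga
Ak1 acceptor of intron 2: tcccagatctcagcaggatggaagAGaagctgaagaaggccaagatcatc
Shifts of at most 10 bases at 1 splice site made up 2.65% and 2.13% of Ak1 counts, compared with 0.089% and 0.12% for Ckm and 0.14% and 0.14% for Ckmt2. Ahead of the coding sequence, Ak1 also had a donor of intron 1 that was 4 bases later, with 19 and 12 counts, an acceptor of intron 1 that was 2 bases later, with 18 and 16, and a donor 49 bases later, with 9 and 8.

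In Ckm the most frequent variant with all 7 introns began exon 2 190 bases earlier, ahead of the start codon, and held 8 and 6 of the 12341 and 12685 counts. In Ckb a variant that kept intron 3 held 4 and 1 counts, and models not spliced at intron 1 held 3 and 8. The latter were listed from chr12 position 111672282 at 1672 bases, longer than Ckb-201 (1472), so they keep sequence of intron 1. In Ak3 the largest new models were single-exon models at the 3′ end, with 10 counts in replicate 1 (293 bases) and 4 in replicate 2 (920 bases). The 2 and 3 counts of Ak4 included 1 in each library on a model that starts after intron 1.

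Matched by every intron, 14 of 48 new multi-exon Ckm models occurred in both libraries, and they carried 95.6% and 92.8% of the new multi-exon counts. For Ckmt2 it was 26 of 52 models with 91.1% and 91.3%, for Ak1 21 of 55 with 91.0% and 91.5%, and for Ckb 5 of 10 with 80.0% and 89.5%. Models found in 1 library only held at most 4 counts in these genes.

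**Figure D5:**
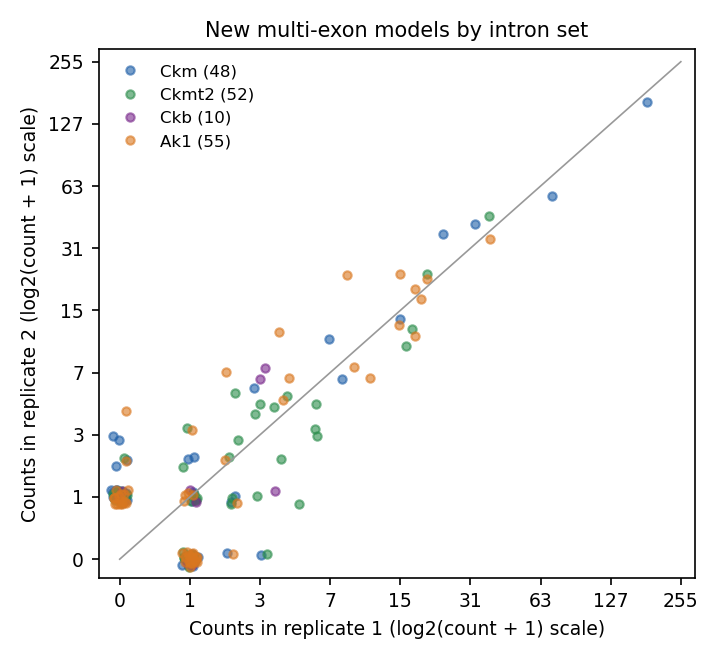
Counts in replicate 1 against replicate 2 for each new multi-exon model, matched by its introns, of Ckm (48), Ckmt2 (52), Ckb (10) and Ak1 (55), on a log2(count + 1) scale with points moved slightly at random so that they do not cover each other; the line marks equal counts. The highest point is the Ckm model with 196 and 153 counts, and models on an axis edge, found in 1 library only, hold at most 4 counts.

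For reads counted on annotated transcripts, the first exon showed which Ak1 start they belonged to. The start positions of single reads are not given, as for their ends. Of the Ak1 transcripts, Ak1-202, which starts at chr2 position 32625437, held 2455 and 2487 counts. Those that start at 32621758 and 32629504 held 1 and 0 and 2 and 0. The new model described above as starting after intron 1 held 37 and 34 counts. It was listed from 32628390 in replicate 1 and from 32628340 in replicate 2. The former position is the annotated start of Ak1-205, which held 0 counts itself. The windows below cover the Ak1-202 start and the starts of the 3 creatine kinases above the floor. They run from 120 bases before each RefSeq start site to 30 bases from it (assembly GRCm38.p6, the patch release of mm10). Capitals mark matches on either strand to TATANA, to CANNTG (the E-box) and to the MEF2 motif, a motif of muscle genes.
Ckm chr7:19410974-19411123, plus strand: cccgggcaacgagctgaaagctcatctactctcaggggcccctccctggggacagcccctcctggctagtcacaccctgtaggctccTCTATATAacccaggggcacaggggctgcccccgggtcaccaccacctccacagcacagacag
Ckb chr12:111672309-111672458, minus strand: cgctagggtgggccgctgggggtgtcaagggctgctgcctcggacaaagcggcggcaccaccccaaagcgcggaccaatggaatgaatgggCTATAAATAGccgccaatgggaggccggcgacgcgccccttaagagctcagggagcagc
Ckmt2 chr13:91876856-91877005, minus strand: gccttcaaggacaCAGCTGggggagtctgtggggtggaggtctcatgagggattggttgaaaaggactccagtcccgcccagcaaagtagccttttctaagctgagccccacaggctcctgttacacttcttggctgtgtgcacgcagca
Ak1 chr2:32625317-32625466, plus strand: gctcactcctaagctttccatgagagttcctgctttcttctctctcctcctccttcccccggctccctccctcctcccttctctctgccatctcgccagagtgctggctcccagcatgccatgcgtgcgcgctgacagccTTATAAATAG
The Ckm window held 2 overlapping TATANA matches, 33 and 31 bases before the RefSeq start, which itself lies 69 bases after the annotated start of Ckm-203. Ckb had 1 TATANA match, 28 bases before its start, that overlapped a MEF2 match. In Ak1 the overlapping TATANA and MEF2 matches began 21 and 20 bases after the annotated start. Ckmt2 had no TATANA match and 1 E-box in this window. Over 32817 promoters of 300 bases, wider than these windows of 150, 24.7% held TATANA, 72.3% an E-box and 3.19% the MEF2 motif. A TATANA or E-box match by itself therefore sets no gene apart. The MEF2 motif was rarer, and whether the matches in Ckb and Ak1 are used was not tested. The absence of a match says only that these letters are not in the window.

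Genes that overlap the members, or are named after them, held few counts apart from Cdc37l1. The pseudogenes Ckb-ps1, Ckb-ps2 and Ak3l2-ps had 0 counts in both libraries. A930016O22Rik, antisense to Ckm, had 0 and 1, 1700119I11Rik over Ckmt2 0, Strc next to Ckmt1 0, and 1700018L02Rik at the Ak3 start 1 and 1. Cdc37l1, which overlaps Ak3 on the opposite strand, had 101 and 148 counts, near those of Ak3 itself (122 and 119), and how the authors assigned strand in that overlap is not given in the sources used here.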

How the data were processed

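The values are counts of long reads per transcript model, which the authors deposited unnormalized, per the file headers. The deposited annotation coordinates, an authors' file of its own kind, follow GENCODE M21 on mm10, per the files' notes, and new models carry the classes ISM, NIC, NNC and Genomic set by the authors. Not given in the sources used here are the aligner, the model filters and the tool versions. Per the labels, each library used 2 µg of total RNA. Counts were summed per reference gene, and new genes (2.68% and 2.89% of counts) and spike-ins (1.72% and 1.25%) were left out. Log2 ratios used CPM plus a pseudocount of 1. Intervals are exact Clopper-Pearson intervals at 95% (SciPy 1.17.1) and, like the floor of 3 counts, cover counting error only. They treat counts as independent. Reads that carry no molecular identifier need not be independent molecules, so the intervals may be too narrow. Fisher's test needed 20 annotated counts in each library. TMM and the exact test came from edgeR 4.0.16, size factors from DESeq2 1.42.0. The binomial, Fisher and edgeR tests were first run on simulated counts. New multi-exon models were matched by every intron. By rule, the text names all 7 genes, their annotated transcripts with a count, up to 5 further models each and the 3 highest genes of each related list. An item that this rule selects is not reported here. Further variants at splice sites and models beyond these 5 were added once their values were known. The members and lists were chosen with earlier results of these data known.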

Additional observations from a re-analysis of the deposited data

Results flagged for a closer look

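Models of new genes that overlap Ak1 on the opposite strand held 5 counts in replicate 1 and 2 in replicate 2. They lie outside the reference genes used for levels and tests, and the 5 counts exceed the limit of 3 that a count of 0 allows. Against the 2716 and 2771 counts of Ak1 they are few.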

How the results depend on the processing

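The order Ckm, Ckmt2, Ak1, Ckb, Ak3 in CPM was the same in each library alone. Levels per gene in single libraries ranged from 11653 to 11914 CPM for Ckm, 3312 to 3476 for Ckmt2, 247 to 301 for Ckb, 0.944 to 1.88 for Ckmt1, 2565 to 2603 for Ak1, 112 to 115 for Ak3 and 1.89 to 2.82 for Ak4. Shares of the creatine kinases ranged from 75.9% to 76.6% for Ckm, 21.8% to 22.2% for Ckmt2, 1.63% to 1.92% for Ckb and 0.0062% to 0.012% for Ckmt1, and shares of the adenylate kinases from 95.6% to 95.8% for Ak1, 4.11% to 4.30% for Ak3 and 0.070% to 0.104% for Ak4. With annotated transcripts alone, levels were scaled to the total of annotated counts instead of all reference gene counts. On that scale they were 14176 CPM for Ckm, 4014 for Ckmt2, 319.8 for Ckb, 2891 for Ak1, 128.6 for Ak3 and 0.585 for Ak4. Ckm itself fell from 12341 to 11933 counts in replicate 1 and from 12685 to 12315 in replicate 2. Its higher CPM therefore comes from the smaller total. The shares were 21.68% for Ckmt2 and 0.0195% for Ak4. Without Genomic models, again scaled to the total of the remaining counts, levels were 12111 CPM for Ckm, 2633 (95.94%) for Ak1 and 109.4 (3.99%) for Ak3. Per kilobase of the main transcript they were 4298 for Ckm (7935 with the shorter end, chosen after seeing the data), 2284 for Ckmt2, 186.1 for Ckb, 1252 for Ak1, 40.4 for Ak3 and 0.562 for Ak4. Counting only models with at least 3 counts, the annotated share was 95.75% for Ckmt2, 95.67% for Ckb and 90.83% for Ak1.

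The 168 genes higher in replicate 1 and 163 higher in replicate 2 became 243 and 91 under TMM, 123 and 87 once the length trend was removed (again 87 in replicate 2 with Ckm at its shorter end) and 12 and 10 under edgeR's exact test. Ratios that changed sign were, under TMM, −0.05 for Ckm, −0.01 for Ckmt2 and −0.06 for Ak1; under DESeq2's size factors −0.01 for Ckm and −0.02 for Ak1; under edgeR's exact test −0.05 for Ckm, −0.01 for Ckmt2 and −0.06 for Ak1. With the length trend removed they were −0.08 for Ckm and −0.06 for Ak1, the latter also with Ckm at its shorter end. For Ak3 the ratio was 0.02 both with annotated transcripts alone and without Genomic models. None of these passed the threshold except Ckm with the length trend removed, and the cause was not tested. Over all models of a gene, 12 of 5432 genes passed the test of transcript use, against 1 of 2633 in the main test, a smaller set of genes. Of the members, Ckm, Ckmt2, Ckb, Ak1 and Ak3 were tested over all models, and none passed. Ckmt1 and Ak4, with at most 3 counts in a library, lie at the limit of depth. No paired analysis was possible because the libraries form 1 group.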
